A study of Mus musculus with 8 samples.

Results

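H19 and 9 further genes subject to genomic imprinting were followed in primary mouse peritoneal mesothelial cells (MCs), the flat cells that line the abdominal cavity. The group consisted of the imprinted growth regulators H19, Igf2, Dlk1, Meg3, Mest, Peg3, Plagl1, Cdkn1c, Grb10 and Ndn, taken by name from an expression table of 13687 genes, and 10 of 10 were present in every library. H19 was chosen by its higher mean in CAV1-/- cells, so its difference between genotypes is given as a description without a test. The question behind the comparison of genotypes was how MCs that lack caveolin-1, a structural protein of caveolae and a membrane sensor of tension, differ from normal MCs at rest and under cyclic stretch.

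MCs came from the parietal peritoneum of CAV1-/- mice (strain B6.Cg-CAV1tm1mls/J, labelled Cav-1-) and of WT littermates. The deletion is carried by the whole animal, so every mouse cell of a CAV1-/- culture has it, and neither the sex nor the age of single animals was given in the labels. Cells of 4 animals were grown to confluence and then kept static or stretched for 24 h, which made 4 groups of 2 libraries: WT static, WT stretch, CAV1-/- static and CAV1-/- stretch. Each animal gave 1 static and 1 stretched culture, and animals are numbered 1 and 2 within each genotype.

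In an imprinted gene, the copy inherited from 1 parent is silenced by DNA methylation or by a linked non-coding RNA, so that expression comes mainly from the other parent's copy. Paternally expressed genes such as Igf2, Dlk1, Mest, Peg3, Plagl1 and Ndn and maternally expressed genes such as H19, Meg3, Cdkn1c and most forms of Grb10 regulate fetal growth, and many are strongly reduced after birth. H19 and Igf2 are neighbors that share enhancers, and Dlk1 and Meg3 form a similar pair. The libraries measured the sum of both parental copies, and in bulk cultures fewer expressing cells and less RNA per cell cannot be told apart.

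H19 is a long non-coding RNA (chr7:142575529-142578143, minus strand, GRCm38) that is also the host of a microRNA, miR-675. The hairpin lies inside the gene on the same strand, at chr7:142577064-142577147, and is exonic in 3 of the 7 annotated H19 transcripts. Its RefSeq sequence (GRCm38.p6) is shown because these bases are part of the member RNA that differed most between libraries, with both mature arms in capitals in the hairpin and with the seed, bases 2 to 8, in capitals in the mature forms.
miR-675 hairpin: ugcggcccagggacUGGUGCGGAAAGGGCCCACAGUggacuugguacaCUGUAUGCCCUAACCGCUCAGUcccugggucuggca
mmu-miR-675-5p: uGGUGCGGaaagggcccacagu
mmu-miR-675-3p: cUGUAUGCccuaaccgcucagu
The libraries were made from polyadenylated RNA, so the level of the mature microRNAs was not measured. The microRNA hosts Mest (miR-335, in an exon of 0 of 11 annotated transcripts) and Meg3 (miR-770, exonic in 1 of 11 transcripts) also belong to the group.

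Library size and cell composition were examined before the members. Libraries held 9777738 to 21203938 reads, and the 4 stretched libraries (15861571 to 21203938) were all deeper than the 4 static ones (9777738 to 14237503). Cav1 itself stood at 247 to 764 TMM-normalized CPM, the authors' reads per library scaled to a common size, in WT and at 12.8 to 34.5 CPM in CAV1-/- libraries, so the labels and the targeted gene matched in 8 of 8 libraries, with the position of the remaining reads in the gene not analysed here. Of 13 mesothelial markers measured, 11 were lower in all 4 CAV1-/- libraries than in all 4 WT libraries (5.88% of all genes), and the summed level of the 13 was 3119 to 4120 CPM in WT and 925 to 1177 CPM in CAV1-/- libraries. CAV1-/- animal 1 stood apart by its leukocyte transcripts: 13 of 13 measured were above the other 6 libraries in its static and its stretched culture, and their sum was 4724 to 4765 CPM there and 73.4 to 457 CPM elsewhere. The WT animals also differed in this sum, with 440 CPM static and 457 CPM stretched in animal 1 and 73.4 and 78.5 CPM in animal 2. Of the Y-linked genes, 4 (Ddx3y, Eif2s3y, Kdm5d and Uty) were detected in all 8 libraries, with sums of 177 to 203 CPM in WT and 168 to 208 CPM in CAV1-/- libraries. Xist, the other sex marker looked for, had no values.

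H19 was the member that varied most, over a 65.7-fold range. Its level in static WT cultures was 4.90 CPM in animal 1 and 20.8 CPM in animal 2, and in stretched WT cultures 20.7 and 17.4 CPM. In static CAV1-/- cultures it was 37.9 CPM in animal 1 and 216 CPM in animal 2, and in stretched CAV1-/- cultures 48.2 and 322 CPM. All 4 CAV1-/- libraries lay above all 4 WT libraries, a pattern held by 3.86% of the genes tested, which the choice of H19 had used. The lowest CAV1-/- value rested on 460 reads and the highest WT value on 258 reads.

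**Figure D1:**
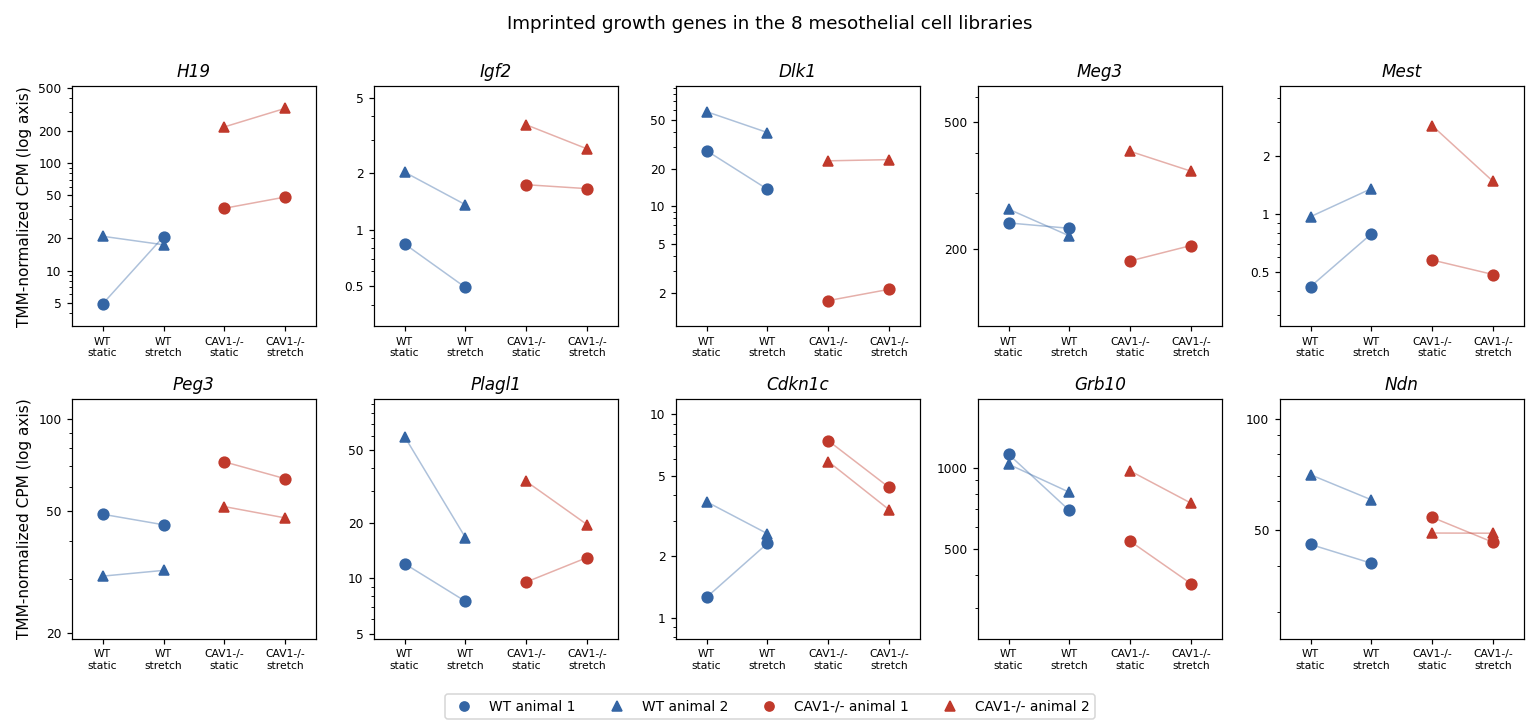
TMM-normalized CPM (log axis, scaled separately in each panel) of the 10 imprinted genes in the 8 libraries, with circles for animal 1, triangles for animal 2, blue for WT and red for CAV1-/-, and lines that join the static and stretched culture of an animal. H19 separates the genotypes, with 4.90 to 20.8 CPM in WT and 37.9 to 322 CPM in CAV1-/- libraries, whereas the genotypes overlap in the other 9 panels.

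The mean of H19 was 156 CPM in CAV1-/- and 15.9 CPM in WT libraries, a ratio of 9.79. By group the mean was 12.9 ± 11.3 CPM in WT static, 19.02 ± 2.33 in WT stretch, 127 ± 126 in CAV1-/- static and 185 ± 193 in CAV1-/- stretch (SD, n = 2 each), so in CAV1-/- cells the SD over the 2 animals was about as large as the mean. On the scale of log2(CPM + 1), on which all log2 fold changes below are given, H19 was higher in CAV1-/- cells by 3.02 in static and by 2.66 in stretched cultures. Animal 2 set much of this size: without both of its cultures the differences were 1.78 and 1.303, and without both cultures of animal 1, whose leukocyte markers were high, they were 4.26 and 4.02. The summed leukocyte level was 298 to 331 CPM in animal 2, where H19 was highest. Skeletal muscle, another tissue known for H19, was checked by its markers: 4 of 10 were in the table (Des, Acta1, Myh3 and Chrna1) and had their highest sums in CAV1-/- animal 1 (1070 to 1546 CPM), against 193 to 203 CPM in CAV1-/- animal 2, 515 to 743 CPM in WT animal 1 and 98.6 to 120 CPM in WT animal 2. In CAV1-/- animal 1 the sum was mostly Acta1 (685 CPM static and 1231 CPM stretched) and Des (383 and 311 CPM). Of the 4 markers, 2 were above the other 6 libraries in both of its cultures. Des was not, with 324 CPM in static and 319 CPM in stretched WT animal 1. Myh3 and Chrna1 were at 0.247 to 2.13 CPM in the 8 libraries. The table has no rows for the defining factors Myod1, Myog, Pax7 and Myf5. The sum of 6 smooth muscle and pericyte markers was also highest in CAV1-/- animal 1, at 5129 to 6910 CPM against 2109 to 4677 CPM in the other 6 libraries. The part of leukocytes or muscle cells in the H19 values was not tested.

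Igf2, the fetal growth factor next to H19 (chr7:142650766-142666816, minus strand), was close to the limit of detection. It was at 0.839 and 2.02 CPM in static WT, 0.493 and 1.36 in stretched WT, 1.73 and 3.60 in static CAV1-/- and 1.65 and 2.68 CPM in stretched CAV1-/- cultures, from 10 to 49 reads per library. The lowest value, 10 reads, had an exact Poisson 95% interval of 4.80 to 18.4 reads, which covers counting error only. Igf2 tended to be higher in CAV1-/- libraries, but WT animal 2 in static culture (2.02 CPM) exceeded both cultures of CAV1-/- animal 1. The log2 fold change was 0.59 (SE 0.43, adjusted p = 0.831, limma) in static and 0.74 (SE 0.43, adjusted p = 0.942) in stretched cultures, and neither passed the threshold. The ratio of H19 to Igf2 in CPM, used only to compare libraries, ran from 5.83 to 41.9 in WT and from 21.9 to 120 in CAV1-/- cultures.

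The neighbors of H19 were examined next. Of 13 genes tested within 500 kb of H19, Igf2 included, 0 passed the adjusted threshold between genotypes (limma), and 3 in static and 4 in stretched cells had an unadjusted p under 0.05, beside 8.17% and 6.26% of all genes. Tnnt3, a fast skeletal muscle troponin, was higher in all 4 CAV1-/- libraries (0.411 to 1.31 CPM against 0.0700 to 0.404 CPM), as were 3.86% of all genes. These values rested on few reads. The 0.411 CPM was that of static CAV1-/- animal 2, where 1 read equals 0.103 CPM. The 0.404 CPM was that of static WT animal 2, where 1 read equals 0.0807 CPM. Mrpl23, a mitochondrial ribosomal protein gene, was lower in all 4 (5.44 to 7.37 against 8.07 to 8.44 CPM), as were 5.88% of all genes. Lsp1, an actin-binding protein gene, was at 13.2 and 25.2 CPM in static WT, 53.8 and 30.6 in stretched WT, 43.3 and 82.9 in static CAV1-/- and 119 and 128 CPM in stretched CAV1-/- cultures (adjusted p = 0.335 static and 0.481 stretched). These 3 genes were singled out after their values were seen.

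Dlk1 encodes a transmembrane, Notch-ligand-like protein that holds back differentiation of fat and mesenchymal precursors. It was at 28.1 and 57.9 CPM in static WT and at 13.7 and 39.3 CPM in stretched WT cultures. CAV1-/- animal 1 had 1.73 CPM static and 2.13 CPM stretched, and CAV1-/- animal 2 had 23.2 and 23.8 CPM. Animal 1 was thus below every WT library, whereas animal 2 fell inside the WT range. The log2 fold change between genotypes was -2.35 (95% interval -5.62 to 0.93, adjusted p = 0.773) in static and -1.47 (SE 1.35, adjusted p = 0.980) in stretched cultures. Without the cultures of CAV1-/- animal 1 they were -0.77 and 0.024, so the direction in stretched cells rested on that animal. The summed level of 10 fibroblast markers was 8405 to 8712 CPM in animal 1 and 9047 to 20262 CPM in the other 6 libraries, and leukocyte markers were highest there. The part of cell composition in the Dlk1 values was not tested.

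Meg3, the maternally expressed long non-coding RNA of the same domain, varied less than Dlk1, over a 2.21-fold range against 33.5-fold. Its values were 242 and 267 CPM in static WT, 232 and 220 in stretched WT, 184 and 406 in static CAV1-/- and 205 and 351 CPM in stretched CAV1-/- cultures. CAV1-/- animal 1 was the lowest and CAV1-/- animal 2 the highest of the series, on either side of all 4 WT libraries. The log2 fold changes were 0.10 (SE 0.41, adjusted p = 0.984) static and 0.25 (SE 0.41, adjusted p = 1.00) stretched, and without animal 2 they turned to -0.47 and -0.14. Rian, a further non-coding RNA of the domain, had the same order of CAV1-/- animals, with 200 CPM static and 241 CPM stretched in animal 1 and 498 and 505 CPM in animal 2, against 234 to 318 CPM in WT.

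**Figure D2:**
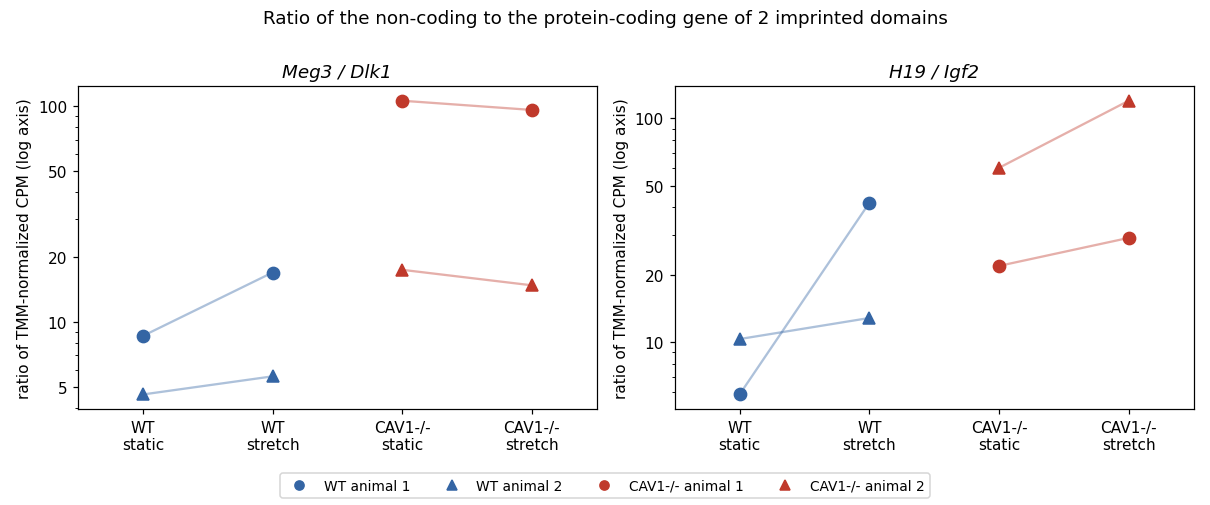
Ratio of TMM-normalized CPM (log axis) of Meg3 to Dlk1 (left) and of H19 to Igf2 (right) in the 8 libraries, with circles for animal 1, triangles for animal 2 and lines joining the cultures of an animal. The Meg3 to Dlk1 ratio stands at 96.2 and 106 in CAV1-/- animal 1 and between 4.61 and 17.5 in the other 6 libraries.

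The ratio of Meg3 to Dlk1 was 8.62 and 4.61 in static WT, 17.0 and 5.60 in stretched WT, 106 and 17.5 in static CAV1-/- and 96.2 and 14.8 in stretched CAV1-/- cultures. The genotypes overlapped, since stretched WT animal 1 exceeded stretched CAV1-/- animal 2. The 250 bases upstream of a RefSeq start of each gene (GRCm38.p6, plus strand) are given because 1 start lies at each end of this ratio. The Dlk1 window is chr12:109452573-109452822 and the Meg3 window is chr12:109540746-109540995. Capitals mark TATAAA read on either strand, of which 2 overlapping copies stand in the Meg3 window, and 13.6% of the 32851 mouse promoter windows of 300 bases hold it. A second RefSeq window of Meg3, at chr12:109545148-109545397, has no TATAAA and 0 CpG in its 250 bases, and is not printed.
Dlk1: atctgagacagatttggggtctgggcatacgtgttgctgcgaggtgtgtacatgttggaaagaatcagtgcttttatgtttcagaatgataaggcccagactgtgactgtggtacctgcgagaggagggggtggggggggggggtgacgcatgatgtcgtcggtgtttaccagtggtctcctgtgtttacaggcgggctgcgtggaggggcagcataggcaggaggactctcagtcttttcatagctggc
Meg3: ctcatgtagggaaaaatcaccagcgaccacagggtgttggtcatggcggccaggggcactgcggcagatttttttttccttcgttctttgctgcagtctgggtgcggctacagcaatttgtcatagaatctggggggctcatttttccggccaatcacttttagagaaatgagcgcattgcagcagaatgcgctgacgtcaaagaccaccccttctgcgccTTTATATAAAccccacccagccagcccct
The other letters searched on both strands in the 8 members with a window were AAGATGGC (a YY1 core, 2.75% of windows) and CACGTG (an E-box, 7.15%). The E-box was found in Plagl1, and the YY1 core in no member.

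Among the inhibitors of growth, Cdkn1c, which encodes the cyclin-dependent kinase inhibitor p57, had the smallest unadjusted p between genotypes in static cells. It was at 1.26 and 3.71 CPM in static WT, 2.32 and 2.59 in stretched WT, 7.42 and 5.86 in static CAV1-/- and 4.37 and 3.39 CPM in stretched CAV1-/- cultures, from 18 to 90 reads. Both static CAV1-/- cultures lay above both static WT cultures, and the stretched CAV1-/- cultures were lower than their static partners in both animals. In static cells the log2 fold change was 1.22 (SE 0.37, unadjusted p = 0.0167), which did not pass adjustment over all genes (adjusted p = 0.432) and was 0.69 without static WT animal 1 and 0.65 with a pseudocount of 5, and in stretched cells it was 0.49 (SE 0.37, adjusted p = 0.961). Cdkn1c was the only one of 9 members tested with an unadjusted p under 0.05 in static cells, where 8.17% of all genes had one.

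Peg3, a zinc-finger protein gene that is paternally expressed, had a mean in CAV1-/- cells that was 1.502 times that in WT cells. Its level was 48.8 and 30.7 CPM in static WT, 45.1 and 32.0 in stretched WT, 72.4 and 51.7 in static CAV1-/- and 63.8 and 47.5 CPM in stretched CAV1-/- cultures. Only stretched CAV1-/- animal 2 was below a WT library, static WT animal 1. The means were 58.8 CPM in CAV1-/- and 39.2 CPM in WT libraries, and the log2 fold change was 0.65 (95% interval -0.11 to 1.401, adjusted p = 0.694) in static and 0.52 (SE 0.31, adjusted p = 0.947) in stretched cultures.

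Grb10, an adaptor protein that dampens insulin and IGF receptor signaling, had the highest median level per kilobase of exon among the members. It was at 1121 and 1029 CPM in static WT, 693 and 810 in stretched WT, 532 and 971 in static CAV1-/- and 370 and 737 CPM in stretched CAV1-/- cultures. The genotypes overlapped, with log2 fold changes of -0.58 (SE 0.40, adjusted p = 0.822) in static and -0.52 (SE 0.40, adjusted p = 0.963) in stretched cells. Without both cultures of CAV1-/- animal 1 the log2 fold changes were -0.14 and -0.023.

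In the remaining members the genotypes overlapped widely. Plagl1, a zinc-finger transcription factor gene, ranged from 7.49 to 59.4 CPM in WT and from 9.56 to 33.8 CPM in CAV1-/- libraries, with the highest value in static WT animal 2. Ndn, a MAGE-family growth suppressor gene, had the narrowest range, 40.6 to 70.5 CPM, and CAV1-/- libraries (46.3 to 54.1 CPM) lay inside the WT range. Mest, a hydrolase-like gene that lies 13.4 Mb from Cav1 on chromosome 6, was at 0.420 to 1.36 CPM in WT and 0.485 to 2.88 CPM in CAV1-/- libraries, from only 6 to 28 reads.

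**Figure D3:**
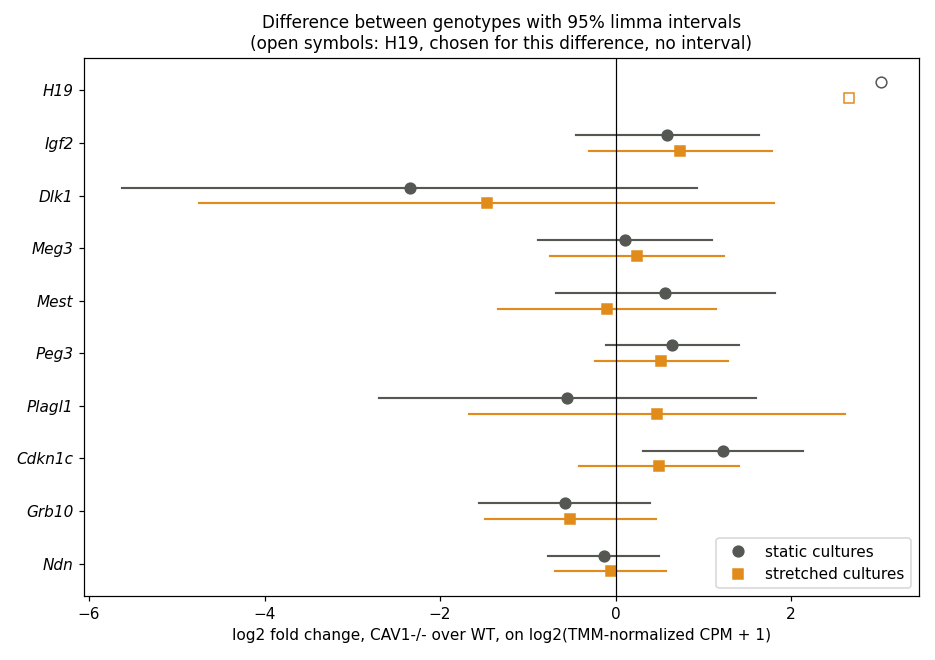
Log2 fold change of CAV1-/- over WT, on log2(TMM-normalized CPM + 1), for the 10 genes in static (gray circles) and stretched (orange squares) cultures, with lines for 95% limma intervals and open symbols without an interval for H19. The interval of Cdkn1c in static cells, 0.31 to 2.13, is the one that lies off 0, and those of Dlk1 are the widest, -5.62 to 0.93 in static and -4.74 to 1.81 in stretched cells.

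Across the 2 comparisons of genotypes, 0 of the 9 members tested passed an adjusted p of 0.05, with adjusted p from 0.432 to 0.984 in static and from 0.942 to 1.00 in stretched cells (limma). In all, 0.0732% of 13665 genes passed in static and 0.0585% in stretched cells. The number of members at an unadjusted p under 0.05 was 1 in static and 0 in stretched cells, where 6.26% of all genes had one. On the recovered reads, edgeR and DESeq2 called 0 members in either comparison, while edgeR called 0.0146% of all genes in static and 0.0439% in stretched cells and DESeq2 2.26% and 1.73%. The median log2 fold change of the 10 members was 0.33 in static and 0.36 in stretched cells, beside -0.013 and 0 over all genes. In each comparison 6 of 10 were above 0. Both the median and the count include H19, which was chosen for its higher CAV1-/- mean. They are therefore not read as a result about the group.

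Stretch was examined within each animal. In the stretch comparison of all 4 animals, Grb10 was lower after stretch in 4 of 4, at 0.618 and 0.787 times the static level in WT and 0.695 and 0.759 times in CAV1-/- animals. The mean log2 difference was -0.49 ± 0.15 (SD, n = 4 animals). Without a term for the animal its adjusted p was 0.991 (SE 0.28), and with the replicate block, which compares each stretched culture with the static culture of the same animal, it was 0.0456 (SE 0.078), 1 of 201 genes (1.47%) called in that fit. An exact sign-flip permutation test over the 4 animals gave p = 0.125 (two-sided), the smallest that 4 animals allow. By genotype the log2 fold change was -0.52 (SE 0.40) in WT and -0.46 (SE 0.40) in CAV1-/- cells, and the blocked adjusted p was 0.176 and 0.194.

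The Grb10 gene (chr11:11930508-12038683, minus strand) has several starts, and 1 of its RefSeq windows is shown because it is among the richest in CpG, the dinucleotide on which DNA methylation is set. Whether this window carries the imprinting mark of Grb10 was not examined. The 250 bases upstream of that start, at chr11:12037421-12037670, hold 40 CpG, and the 300-base window holds 45, more than 98.1% of all mouse windows (median 7).
Grb10: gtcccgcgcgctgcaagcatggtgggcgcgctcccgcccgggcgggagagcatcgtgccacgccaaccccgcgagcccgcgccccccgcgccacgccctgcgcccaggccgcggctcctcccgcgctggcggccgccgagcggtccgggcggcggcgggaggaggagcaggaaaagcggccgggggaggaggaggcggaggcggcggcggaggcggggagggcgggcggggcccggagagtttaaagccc
A second Grb10 window, at chr11:12027972-12028221, holds 9 CpG. Methylation was not measured in these cultures.

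**Figure D4:**
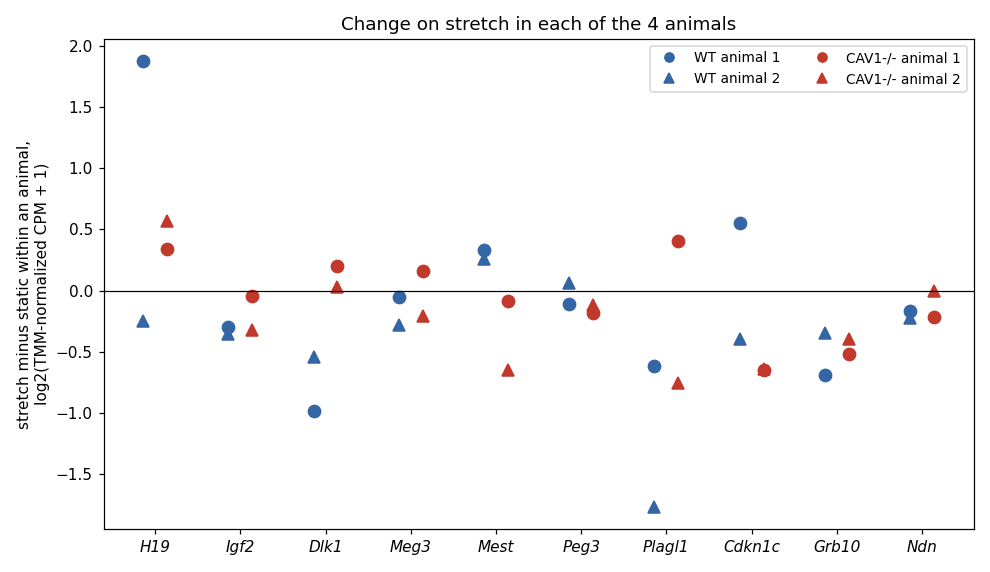
Change on stretch within each animal, as log2(TMM-normalized CPM + 1) of the stretched minus the static culture, for the 10 genes, with circles for animal 1, triangles for animal 2, blue for WT and red for CAV1-/-. Grb10 lies below 0 in all 4 animals, with ratios of 0.618 to 0.787, and Dlk1 and Mest have both WT animals on 1 side of 0 and both CAV1-/- animals on the other.

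Igf2 and Ndn were also lower after stretch in 4 of 4 animals, and 3 of 10 members did so, beside 16.9% of all genes. For Igf2 the mean log2 difference was -0.26, and for Ndn it was -0.15, where CAV1-/- animal 2 differed by a ratio of only 0.999. Without a term for the animal the SE was 0.30 for Igf2 and 0.18 for Ndn (adjusted p = 0.999 each, limma). With the replicate block, which compares cultures of the same animal, it was 0.145 for Igf2 (adjusted p = 0.365) and 0.069 for Ndn (adjusted p = 0.273). H19 went from 4.90 to 20.7 CPM in WT animal 1, a ratio of 4.22 (70 and 419 reads), and from 20.8 to 17.4 CPM in WT animal 2, a ratio of 0.834. In CAV1-/- animals the ratios were 1.27 and 1.49. The log2 fold change of H19 on stretch was 0.81 (SE 1.19, adjusted p = 1) in WT and 0.45 (SE 1.19, adjusted p = 1.00) in CAV1-/- cells, without the block. With the block the SE of H19 was 0.434 in each, and the adjusted p was 0.434 in WT and 0.684 in CAV1-/- cells (limma).

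Dlk1 was lower after stretch in both WT animals, by 0.98 and 0.55 on the log2 scale, and differed by 0.20 and 0.03 in the opposite direction in CAV1-/- animals. In WT cells its log2 fold change was -0.76 (SE 1.35, adjusted p = 1; -0.037 without stretched WT animal 1), and in CAV1-/- cells 0.11 (SE 1.35, adjusted p = 1.00). With the replicate block, which compares cultures of the same animal, the SE was 0.153 in each. The blocked adjusted p of Dlk1 was 0.170 in WT and 0.778 in CAV1-/- cells (limma). Plagl1 in WT cells went from 12.0 to 7.49 CPM and from 59.4 to 16.7 CPM, a log2 fold change of -1.19 (SE 0.88, adjusted p = 1) that was -0.088 without static WT animal 2, and in CAV1-/- cells from 9.56 to 13.002 and from 33.8 to 19.6 CPM. Cdkn1c in CAV1-/- cells had a log2 fold change of -0.65 (SE 0.37, adjusted p = 1.00), and its WT animals went opposite ways, from 1.26 to 2.32 and from 3.71 to 2.59 CPM. Over both genotypes 0 of 10 members passed an adjusted p of 0.05 without the block, as did 0% of the genes tested in each, where 2.27% of genes in WT and 2.09% in CAV1-/- cells had an unadjusted p under 0.05 and 0 members did. Under the block (limma), 3 of 10 members in WT (Dlk1, Grb10 and Plagl1) had an unadjusted p under 0.05, beside 14.5% of all genes. In CAV1-/- cells 2 of 10 did (Grb10 and Cdkn1c), beside 13.3%. In each genotype 0 members passed the blocked adjusted threshold. The blocked SE was 0.345 for Plagl1 in WT (adjusted p = 0.258) and 0.257 for Cdkn1c in CAV1-/- cells (adjusted p = 0.361). The interaction of genotype and stretch called 0 members and 0% of genes, with 0.483% at an unadjusted p under 0.05 and 0 members among them. Over all 4 animals without the block 4.73% of genes and 0 members had an unadjusted p under 0.05. Dlk1 and Mest were the 2 of 10 members with both WT animals going 1 way and both CAV1-/- animals the other, as did 8.98% of all genes.

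Levels per kilobase of annotated exon, which allow members to be compared with each other, put Grb10 first with a median of 85.1 CPM per kb over 8 libraries. Ndn (13.3), Meg3 (13.1) and H19 (11.9) followed and did not differ beyond their spread, since H19 alone ran from 1.99 to 131 CPM per kb. In stretched CAV1-/- animal 2 H19 (131 CPM per kb) was above Grb10 (81.1), and the means of stretched CAV1-/- cultures were 75.2 ± 78.6 CPM per kb for H19 and 60.9 ± 28.5 for Grb10 (SD, n = 2), which overlapped. Next came Dlk1 (4.15), Peg3 (3.61), Plagl1 (1.90) and Cdkn1c (1.74 CPM per kb), whose ranges overlapped. Igf2 (0.295) and Mest (0.223 CPM per kb) were lowest and overlapped each other. Exons of all transcripts were joined for the length, so a gene with many long forms such as Meg3 is understated.

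The genes whose profile was most like that of H19 over the 8 libraries (Pearson's r of log2(CPM + 1), a description over only 4 animals) were Pcyox1l (r = 0.997), the transcription factor gene Gata2 (0.979), Rasl12 (0.974), the retinol dehydrogenase gene Rdh10 (0.972) and Gng2 (0.971). Gata2 was at 13.01 to 16.2 CPM in WT, 18.9 to 19.4 CPM in CAV1-/- animal 1 and 30.5 to 32.1 CPM in CAV1-/- animal 2. In total 99 of 13664 genes (0.725%) had r above 0.9. Among the members r to H19 was 0.80 for Igf2, 0.68 for Mest, 0.67 for Meg3 and 0.60 for Cdkn1c. It was 0.29 for Plagl1, 0.27 for Peg3, -0.09 for Ndn, -0.12 for Dlk1 and -0.21 for Grb10. These r include the genotype difference by which H19 was chosen, so genes higher in CAV1-/- libraries tend to have a high r. The share of all genes at such r was not counted, and the values are not read as a result about the group.

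A wider list of 48 imprinted genes had 33 tested, and 0 passed the adjusted threshold in any comparison. At an unadjusted p under 0.05, 4 differed between genotypes in static cells (3 higher and 1 lower in CAV1-/-) and 5 in stretched cells (4 higher and 1 lower). Over all genes the shares were 2.76% higher and 5.42% lower in static and 2.44% higher and 3.82% lower in stretched cells. Higher in all 4 CAV1-/- libraries than in all 4 WT libraries were 5 (Nnat, Blcap, Htr2a, H13 and Commd1), and 0 were lower in all 4, beside 3.86% and 5.88% of all genes. Nnat, a small membrane proteolipid gene that lies within Blcap, was at 5.60 and 4.84 CPM in static WT, 4.19 and 4.07 in stretched WT, 15.99 and 15.3 in static CAV1-/- and 14.9 and 9.25 CPM in stretched CAV1-/- cultures (adjusted p = 0.122 static and 0.220 stretched). Blcap itself was at 38.1 to 43.6 CPM in WT and 48.7 to 58.0 CPM in CAV1-/- libraries. Htr2a, a serotonin receptor gene, was at 7.20 to 12.6 CPM in WT and 21.6 to 31.8 CPM in CAV1-/- libraries (adjusted p = 0.216 and 0.357). Ddc, which encodes an aromatic amino acid decarboxylase and adjoins Grb10, was at 20.5 to 40.6 CPM in WT, at 1.24 and 0.582 CPM in CAV1-/- animal 1 and at 29.9 and 15.3 CPM in CAV1-/- animal 2. Its lowest values were those of animal 1. Stretched CAV1-/- animal 2 also lay below every WT library, whereas its static culture fell inside the WT range.

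The receptors and binding partners around IGF2 and the machinery that keeps imprints were counted in the same way, beside 8.17% of all genes in static and 6.26% in stretched cells at an unadjusted p under 0.05. Of 9 genes (Igf1, receptors, the insulin receptor substrates Irs1 and Irs2, and mRNA-binding proteins), 0 passed the adjusted threshold between genotypes. At an unadjusted p under 0.05 there were 3 in static (1 higher and 2 lower in CAV1-/-) and 1 in stretched cells. The 2 lower were Irs1 and Irs2, with static log2 fold changes of -0.85 (adjusted p = 0.550, limma) and -1.04 (adjusted p = 0.557). Igf1 was higher in all 4 CAV1-/- libraries, as were 3.86% of all genes (25.4 to 40.7 CPM against 9.30 to 21.4 CPM, adjusted p = 0.562 static and 0.601 stretched), and Igf2r, the receptor that clears IGF2 and is itself imprinted, was at 223 to 328 CPM in WT and 265 to 472 CPM in CAV1-/- libraries. Of 11 genes for DNA methylation and imprint control 0 passed, and 2, both lower in static CAV1-/- cells, had an unadjusted p under 0.05. Among them were the methyltransferase gene Dnmt3a (81.7 to 136 CPM in WT, 58.5 to 90.5 CPM in CAV1-/-) and Zfp57, whose product protects imprints (40.0 to 49.5 and 28.5 to 42.4 CPM). Of 13 cell cycle genes 0 passed and 1 in stretched cells had an unadjusted p under 0.05, and Pcna, the polymerase clamp, was lower in all 4 CAV1-/- libraries, as were 5.88% of all genes (108 to 119 CPM) than in WT (123 to 141 CPM, adjusted p = 0.814 and 0.662). The largest mean difference of that list was that of Cdkn2a, whose genotypes overlapped. Its values were 1.82 to 14.8 CPM in WT and 5.77 to 26.9 CPM in CAV1-/- libraries.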

How the data were processed

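RNA of 8 cultures from 4 mice was sequenced by the study from poly(A) libraries as 61-base single reads. Per the labels and the study's methods, reads were trimmed with Cutadapt, quantified with RSEM on the GRCm38 transcriptome, and normalized by edgeR's TMM. The table deposited by the authors holds TMM-normalized CPM, handled here as signal. Its values were whole multiples of 1 read in 100% of cases (tolerance 0.01 read), and reads were recovered from these steps. A count of 3 reads equals 0.146 to 0.308 CPM. RSEM can split reads between overlapping or similar genes, and the kit as labelled does not mark strand.

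Genes at 1 CPM or more in at least 2 libraries (13665 of 13687) were fitted with limma 3.58.1 (R 4.3.3) on log2(CPM + 1), with a mean per group, a trended prior and Benjamini-Hochberg adjustment over all genes, called at 0.05. edgeR 4.0.16 and DESeq2 1.42.0 were run on recovered reads. Other pseudocounts, filters, scalings, a replicate block and left-out cultures were tried. Static and stretched cultures of the same animal are paired by the labels, and their deviations from group means correlated (r = 0.703 in WT, 0.850 in CAV1-/-). Cultures of 1 group come from different animals. The number of animals is that of the labels, and a figure legend of the study states another number of cultures. Of 13687 gene IDs, 13597 matched GENCODE M21, which gave positions and exon lengths, and 8 of 10 members matched a RefSeq promoter window. The other imprinted genes, IGF2, methylation, cell cycle and marker lists were described by counts. Not every gene with a large mean difference or without overlap was named, and a few others, such as Igf2r and Rian, were named for context. The members and lists were chosen with earlier results of these data known.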

Additional observations from a re-analysis of the deposited data

Results flagged for a closer look

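Dlk1 and Mest went on stretch in opposite directions in the 2 genotypes, with both WT animals on 1 side and both CAV1-/- animals on the other, as 8.98% of all genes did. For Dlk1 the stretch effect in CAV1-/- minus that in WT was 0.88 on the log2 scale (SE 1.90, adjusted p = 1.00, limma interaction), and with the replicate block the unadjusted p was 0.00585 and the adjusted p 0.947. The CAV1-/- side of Dlk1 rested on differences of 0.20 and 0.03. For Mest the same difference was -0.66 (SE 0.72, adjusted p = 1.00), with WT animals at 0.33 and 0.26 and CAV1-/- animals at -0.09 and -0.65, from 6 to 28 reads per library. Neither interaction passed the adjusted threshold.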

How the results depend on the processing

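Under 10 settings other than leaving out a single culture (pseudocounts, filters, scalings, the moderation, edgeR, DESeq2 and the replicate block), 263 values of 27 log2 fold changes held 0 reversals and 2 that passed the threshold in addition, both with the replicate block. One of the 9 members tested between genotypes in static cells (Peg3, adjusted p = 0.0474) and 1 of 10 in the stretch comparison of all 4 animals (Grb10, adjusted p = 0.0456) were then called, instead of 0. For genotypes the block joins different animals with the same number, whose deviations correlated at r = 0.522 static and 0.484 stretched. The labels do not say what else animals of the same number shared, and this was not tested. The block called 246 genes in static and 110 in stretched cells between genotypes, instead of 10 and 8, and changed no other call of a member. A filter on a mean of at least 5 CPM removed Igf2, Mest and Cdkn1c. In these low genes the pseudocount moved sizes by over 1.5 times: over these settings the log2 fold change between genotypes was 0.65 to 1.56 for Cdkn1c and 0.25 to 0.92 for Igf2 in static and 0.25 to 0.67 and 0.27 to 1.25 in stretched cells, the Mest interaction was -1.45 to -0.25, and the Igf2 change on stretch over 4 animals was -0.46 to -0.10.

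Leaving out single cultures, with the lone sample of a group assumed to vary like the others, gave log2 fold changes on stretch of -0.13 to 1.76 for H19 in WT, -0.90 to 1.81 for H19, -1.46 to 1.69 for Dlk1 and -0.96 to 0.036 for Grb10 in CAV1-/-, and -0.31 to 0.0017 for Ndn over 4 animals. Without a change of sign, sizes moved by over 1.5 times for Plagl1 (-2.30 to -0.088) and Dlk1 (-1.49 to -0.037) on stretch in WT, Cdkn1c (0.69 to 1.75) and Dlk1 (-3.92 to -0.77) between static genotypes, and the Mest interaction (-1.31 to -0.013), among others. Between genotypes they were -0.47 to 0.67 (Meg3, static), -0.14 to 0.63 (Meg3, stretched) and -2.96 to 0.024 (Dlk1, stretched), and -0.70 to 2.45 for the Dlk1 interaction. Such a fit splits an animal's pair, so these stretch values also hold the difference between animals. In settings chosen after seeing the data, Meg3 was -0.47 static and -0.14 stretched without CAV1-/- animal 2, and Dlk1 was 0.024 stretched without animal 1, and the cause was not tested. Mest and Igf2 rested on 6 to 49 reads per library, so counting error is part of each of their values.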

Other observations

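Sums of the remaining marker lists overlapped between genotypes: 39.2 to 71.8 CPM in WT and 22.7 to 66.9 CPM in CAV1-/- libraries for 5 endothelial markers, 2109 to 4677 and 2742 to 6910 CPM for 6 smooth muscle and pericyte markers, 63.0 to 461 and 163 to 317 CPM for 4 adipocyte markers, and 9047 to 17805 and 8405 to 20262 CPM for 10 fibroblast markers. CAV1-/- animal 1 lay outside the other 6 libraries in 3 of these lists. Its smooth muscle and pericyte sums were 5129 to 6910 CPM, against 2109 to 4677 CPM elsewhere. Its endothelial sums were 22.7 to 26.7 CPM, against 35.7 to 71.8 CPM, and its fibroblast sums 8405 to 8712 CPM, against 9047 to 20262 CPM.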
